A study of Mus musculus with 12 samples.

Results

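The genes described here are the 10 genes of MHC class II antigen presentation in the mouse: H2-Aa, H2-Ab1 and H2-Eb1, which encode chains of the classical class II molecules, Cd74, H2-DMa, H2-DMb1, H2-DMb2, H2-Oa, H2-Ob and Ciita. They were taken by symbol from the platform annotation, and all 10 were among the 24704 genes measured, each with 1 probe set. The RNA came from whole lung of 4 groups of mice with 3 arrays each. Knockout mice in hypoxia and knockout mice in normoxia are labelled Nfat5(EC)-/- and lost the transcription factor NFAT5 in endothelial cells, and control mice in hypoxia and in normoxia are labelled Nfat5fl/fl. Hypoxia lasted 21 days. Both genotypes carried floxed Nfat5 and were adult males and females, aged 10 to 12 weeks when treated. The knockouts had received 1 mg of tamoxifen per day on 5 days and the controls the solvent miglyol, followed by 2 to 3 weeks of recovery, so the deletion and tamoxifen cannot be told apart. No source used here names the promoter that drives the recombinase or the mouse strain, and lung RNA keeps the Nfat5 transcripts of every other cell type. The design text gives 4 mice per group and says that preparations with other tissue or with a weak response to hypoxia were left out, so the hypoxic animals were chosen in part by their expression.

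MHC class II molecules are pairs of an alpha and a beta chain that carry peptides from ingested proteins to the cell surface, where CD4 T cells read them. The invariant chain, Cd74, blocks the groove while the pair travels to the endosome, and after proteases have trimmed it the H2-DM heterodimer swaps the remaining fragment for a peptide. H2-DO, made of H2-Oa and H2-Ob, restrains H2-DM, mainly in B cells. In lung, class II is carried by dendritic cells, B cells, some macrophages and, at a lower level, alveolar type 2 cells. The genes of the classical chains are switched on together by the coactivator CIITA, which docks on factors bound to the X and Y boxes of their promoters.

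The core letters of these boxes can be read in several of the promoters. RefSeq promoter windows on GRCm38.p6, from 250 bases before to 50 after the start, were found for 7 of the 10 genes. Each line gives 60 bases on the gene's strand, ending shortly after the Y box core, with the matches to the X box core AACNNATG and the Y box core TGATTGG in capitals.
H2-DMb1 (chr17:34153083-34153142, plus strand): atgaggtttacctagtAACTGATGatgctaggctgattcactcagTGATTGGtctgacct
H2-DMb2 (chr17:34145112-34145171, plus strand): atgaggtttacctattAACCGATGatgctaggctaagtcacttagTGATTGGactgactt
H2-Eb1 (chr17:34305761-34305820, plus strand): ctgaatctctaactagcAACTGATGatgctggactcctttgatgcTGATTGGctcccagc
H2-Ob (chr17:34238801-34238860, plus strand): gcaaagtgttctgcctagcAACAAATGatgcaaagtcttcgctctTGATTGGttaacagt
H2-Aa (chr17:34287859-34287918, minus strand): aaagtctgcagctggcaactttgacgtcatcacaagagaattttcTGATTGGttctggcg
H2-Oa (chr17:34092289-34092348, plus strand): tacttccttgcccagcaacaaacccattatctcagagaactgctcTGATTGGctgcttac
These 6 genes are shown because their windows held the Y box core, so the display was selected on that motif.

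The window of H2-DMb2 lies inside the annotated span of that gene. Of the 8 windows of these 7 genes, 6 held the Y box core and 4 held both cores in this order. The 2 windows of H2-DMa held neither set of letters. Across all 32851 promoter windows, on either strand, 7.82% held the Y box core and 8.86% the X box core, and the motifs do not overlap each other in the sequences printed. Both cores on the gene's strand with starts 20 to 45 bases apart were found in 13 windows, or 0.0396%. The letters were chosen after the promoters of these genes had been seen. Among the other 9 of the 13 was H2-Eb2, a neighbouring class II gene. In H2-DMb1 and H2-DMb2 the cores lay 29 bases apart, and the 250 bases before their starts were identical in 175 of 291 aligned columns, or 60.1%. A match is a description of the sequence and not a binding site. The 8 H2 genes lie between 34092379 and 34316674 on chromosome 17 of GRCm38, while Ciita is on chromosome 16 and Cd74 on chromosome 18.

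Arrays of 1 group correlated with r of 0.989 to 0.994 across genes, so no array stood apart over all genes. Some held RNA typical of other tissue. Control hypoxia 1 had 7.66 and knockout normoxia 2 had 9.31 for the brown fat gene Ucp1, against 3.34 to 4.28 in the other 10 (log2). In knockout normoxia 2 the heart hormone Nppa was also 11.9. The mean of 6 heart markers was 9.67 there, 8.48 in knockout normoxia 4 and 8.08 in control normoxia 2. It was 6.70 to 7.63 in the remaining arrays. The level of Nfat5 was 8.59 to 8.80 in normoxic knockouts and 8.92 to 9.39 in normoxic controls, and the difference did not pass (adjusted p = 0.62). Between hypoxic knockouts and hypoxic controls 0 of 24704 genes passed, so Nfat5 did not pass there either. Thymocyte RNA was near the floor, with Rag1 at 3.29 to 3.60 in hypoxic and 3.46 to 3.62 in normoxic lungs. The mean of Y-linked genes was high in 2 of 6 hypoxic arrays, 5.36 in knockout hypoxia 2 and 5.34 in control hypoxia 4, and in 4 of 6 normoxic arrays, at 6.12 to 6.69, and was 2.98 to 3.26 in the other 6 (log2).

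Chronic hypoxia was accompanied by higher RNA of the class II regulator and of part of the presentation machinery. Averaged over both genotypes, Ciita rose 1.66-fold, H2-DMb1 1.68-fold, H2-DMa 1.40-fold and H2-Ab1 1.23-fold in hypoxic lungs relative to normoxic ones (12 arrays). So 4 of 10 genes rose and 0 fell at an adjusted p under 0.05 (limma, a linear model over all genes, with Benjamini-Hochberg adjustment), where 14.7% of all genes passed, 7.27% higher and 7.4% lower. At an unadjusted limma p under 0.05 there were 7 of 10, against 28.4% of all genes. The differences of 8 of the 10 lay above 0, against 52% of all genes, and their median log2 difference was 0.24 against 0.01 over all genes. H2-DMb2 and H2-Ob lay below 0. With the Y-linked mean as covariate 2 of 10 passed, Ciita and H2-DMb1, while H2-Ab1 (0.30, adjusted p = 0.076) and H2-DMa (0.47, adjusted p = 0.11) did not, and 2180 of all genes passed against 3622 without it. In whole lung, more cells that carry class II and more class II RNA per cell cannot be told apart. Leaving out both arrays with high Ucp1, a setting added after the data were seen, gave 6 of 10 genes called, all higher in hypoxia, where 2597 of 24704 genes passed and 1220 of them were higher. With 2 other covariates, described below, 0 of 10 passed. These were a mean of nuclear noncoding RNAs, where 52 of all genes passed, and the clock difference Dbp minus Arntl, where 0 did.

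**Figure D1:**
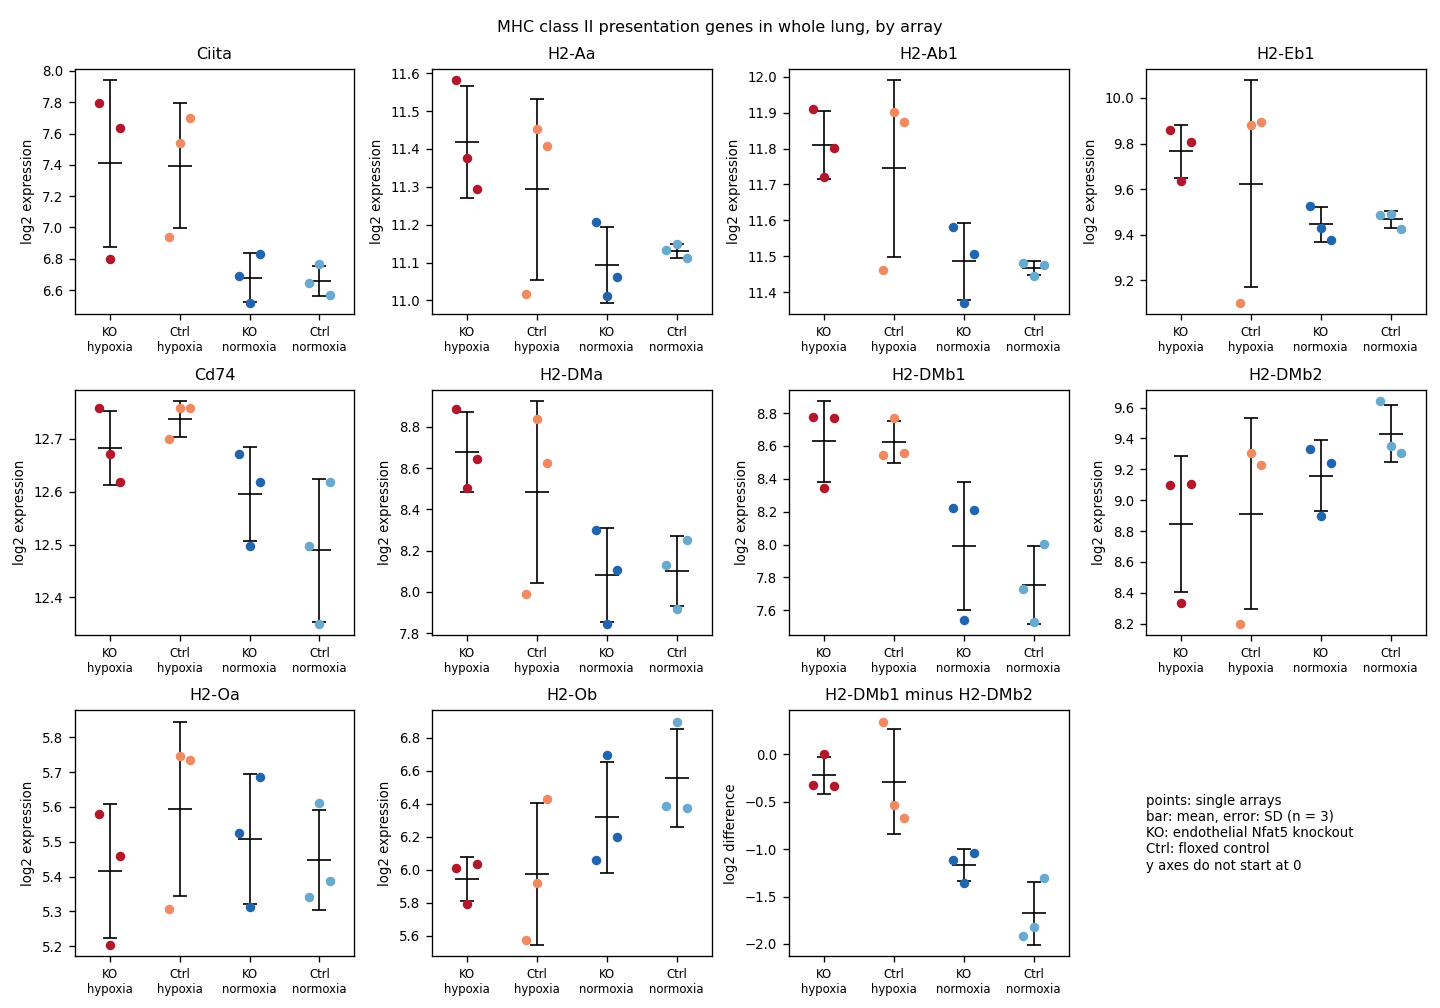
Log2 expression of the 10 genes, and of H2-DMb1 minus H2-DMb2, in each of the 12 arrays, with the mean and SD of each group of 3 (KO is endothelial Nfat5 knockout, Ctrl is floxed control). For H2-DMb1 the 6 hypoxic arrays, at 8.34 to 8.77, lie above the 6 normoxic ones, and control hypoxia 1 is the lowest of its group for all 10 genes.

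Ciita, which encodes the coactivator CIITA, was 7.79, 6.80 and 7.63 on the log2 scale in hypoxic knockouts (replicates 2, 3 and 4). In hypoxic controls (1, 2 and 4) it was 6.94, 7.54 and 7.70. It was 6.69, 6.52 and 6.83 in normoxic knockouts (1, 2 and 4) and 6.64, 6.76 and 6.57 in normoxic controls (1, 2 and 4). Within each hypoxic group 2 arrays were high and 1, knockout hypoxia 3 or control hypoxia 1, lay close to the normoxic level. The control groups did not overlap, and in knockouts the array at 6.80 fell below the highest normoxic one. The averaged log2 difference was 0.73 ± 0.17 (SE; limma adjusted p = 0.016), with an exact two-sided permutation p of 0.01 within genotypes. Within a genotype it was 0.73 ± 0.24 in knockouts (adjusted p = 0.21) and 0.74 ± 0.24 in controls (adjusted p = 0.072), so neither passed alone. Without knockout hypoxia 3 the knockout value was 1.03 and passed (adjusted p = 0.047), and without control hypoxia 1 the control value was 0.96 and passed (adjusted p = 0.028). The control value of 0.74 also passed without knockout hypoxia 3, which adds only to the shared spread (adjusted p = 0.025). The averaged call held without each of the 12 arrays in turn.

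H2-DMb1, the beta chain of the peptide exchange factor H2-DM, separated the oxygen states in both genotypes. Its log2 values were 8.77, 8.34 and 8.77 in hypoxic knockouts and 8.54, 8.77 and 8.56 in hypoxic controls. They were 8.22, 7.54 and 8.21 in normoxic knockouts and 7.73, 7.53 and 8.004 in normoxic controls. Every hypoxic array lay above every normoxic one. Of the 10 genes H2-DMb1 alone had no overlap in both genotypes in the same direction, which 8.32% of all genes showed and 4.68% in the upward direction. Averaged over genotypes the log2 difference was 0.75 ± 0.14 (SE; limma adjusted p = 0.0050), with an exact permutation p of 0.005, the smallest that 400 regroupings allow. In controls it was 0.87 ± 0.19 (adjusted p = 0.017), the only gene of the 10 to pass there, where 11.5% of all genes passed and 5.36% rose. At an unadjusted limma p under 0.05 there were 5 of 10 in controls, against 27.4% of all genes. H2-Ob, among these 5, was lower in hypoxia. The control call of H2-DMb1 was lost without control hypoxia 2 (0.80, adjusted p = 0.073), control normoxia 1 (0.86, adjusted p = 0.057) or control normoxia 2 (0.76, adjusted p = 0.071). In knockouts it was 0.64 ± 0.19 (adjusted p = 0.16).

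RNAs that stay in the nucleus moved with this result. The mean of 8 nuclear noncoding RNAs, such as Neat1 and Malat1, was 6.11 to 6.55 in hypoxic knockouts, 6.04 to 6.27 in hypoxic controls, 6.43 to 6.88 in normoxic knockouts and 6.68 to 7.14 in normoxic controls (log2). In controls the oxygen states did not overlap in this mean. With it as a covariate the control difference of H2-DMb1 was -0.0047 (adjusted p = 0.998), and the averaged values were 0.18 for H2-DMb1, 0.33 for Ciita, 0.091 for H2-Ab1 and -0.026 for H2-DMa, and 0 of the 10 passed. In controls 1 of the 10 differences then lay above 0, that of Ciita at 0.12, against 8 without the covariate, and their median was -0.12 against 0.21. Averaged over genotypes 5 of 10 lay above 0, and Cd74 was at -0.022. Over all genes the count called in controls was then 2, against 2839 without the covariate. With the clock difference Dbp minus Arntl as covariate, which separated the oxygen states with 5.64 to 6.21 in hypoxia against -0.10 to 3.72 in normoxia, the averaged values were 0.82 for H2-DMb1 and Ciita, 0.44 for H2-Ab1 and 0.79 for H2-DMa, and 0 passed. What lies behind either covariate was not tested.

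H2-DMa, the alpha chain that pairs with either H2-DM beta chain, was 8.89, 8.50 and 8.64 in hypoxic knockouts and 7.99, 8.84 and 8.63 in hypoxic controls (log2). It was 8.30, 7.84 and 8.10 in normoxic knockouts and 8.13, 7.92 and 8.25 in normoxic controls. The knockout groups did not overlap, while in controls hypoxia 1, at 7.99, fell among the normoxic arrays. The averaged log2 difference was 0.49 ± 0.14 (SE; limma adjusted p = 0.038; exact permutation p = 0.02). Within a genotype it was 0.60 ± 0.20 in knockouts (adjusted p = 0.22) and 0.38 ± 0.20 in controls (adjusted p = 0.24). Without control hypoxia 1 the control value was 0.63 and passed (adjusted p = 0.031).

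H2-DMb2, the close relative of H2-DMb1, lay lower in hypoxia but did not pass the test. Its log2 values were 9.10, 8.34 and 9.10 in hypoxic knockouts and 8.20, 9.30 and 9.23 in hypoxic controls. They were 9.33, 8.90 and 9.24 in normoxic knockouts and 9.64, 9.35 and 9.30 in normoxic controls. The groups overlapped in knockouts and, by a narrow margin, in controls, and the lowest values were those of knockout hypoxia 3 and control hypoxia 1. Averaged over genotypes the log2 difference was -0.42 ± 0.20 (SE; limma adjusted p = 0.20; exact permutation p = 0.085), and 0.18 with the clock covariate. Without control hypoxia 1 it was -0.24, and the control value was -0.16 against -0.52 with that array. Without knockout hypoxia 3 the averaged value was -0.29, and the knockout value was -0.06 against -0.31. The log2 value of H2-DMb1 minus that of H2-DMb2 within an array was -0.33, 0.01 and -0.34 in hypoxic knockouts and 0.35, -0.54 and -0.67 in hypoxic controls. It was -1.11, -1.36 and -1.04 in normoxic knockouts and -1.92, -1.82 and -1.30 in normoxic controls. All 6 hypoxic arrays lay above the 6 normoxic ones, as they did for H2-DMb1 alone. The averaged difference of H2-DMb1 minus H2-DMb2 was 1.17 (exact permutation p = 0.005, the smallest possible), a measure chosen after its values were seen. H2-DMb1 alone had the same exact permutation p, and the share of gene pairs that separate this way was not counted. It was 1.11 with the nuclear covariate, 0.96 without the 2 arrays high in Ucp1 and 0.64 with the clock covariate. No source used here says how well the probes tell the 2 sequences apart, and the sign of this quantity does not say which gene is more abundant.

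The classical chains had smaller differences of the same sign. H2-Ab1, the beta chain of I-A, was 11.91, 11.72 and 11.80 in hypoxic knockouts and 11.46, 11.90 and 11.87 in hypoxic controls (log2). It was 11.58, 11.37 and 11.51 in normoxic knockouts and 11.48, 11.45 and 11.47 in normoxic controls. The 3 hypoxic knockouts lay above the 3 normoxic knockouts, and 2 of 3 hypoxic controls lay above all normoxic controls, the exception being control hypoxia 1. The averaged log2 difference was 0.30 ± 0.08 (SE; limma adjusted p = 0.030; exact permutation p = 0.015). In knockouts it was 0.32 ± 0.12 (adjusted p = 0.25) and in controls 0.28 ± 0.12 (adjusted p = 0.14). Without control hypoxia 1 the control value was 0.42 and passed (adjusted p = 0.020).

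The averaged calls of Ciita and H2-DMb1 held in 12 of 12 fits that left out 1 array, and those of H2-Ab1 and H2-DMa in 4. Each of H2-Ab1 and H2-DMa was lost in the same 8, those without knockout hypoxia 2 or 4, control hypoxia 2 or 4, knockout normoxia 2 or 4, or control normoxia 1 or 2. In all 12 such fits H2-Ab1 stayed between 0.26 and 0.37 (adjusted p from 0.0045 to 0.077) and H2-DMa between 0.40 and 0.61 (adjusted p from 0.0054 to 0.096).

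H2-Aa, the alpha chain that pairs with H2-Ab1, was 11.58, 11.38 and 11.29 in hypoxic knockouts and 11.02, 11.45 and 11.41 in hypoxic controls (log2). It was 11.21, 11.01 and 11.06 in normoxic knockouts and 11.13, 11.15 and 11.11 in normoxic controls. The knockout groups did not overlap, and control hypoxia 1 lay below every normoxic control. Averaged over genotypes the log2 difference was 0.24 ± 0.08 (SE; limma adjusted p = 0.077; exact permutation p = 0.035). H2-Eb1, the beta chain of I-E, was 9.86, 9.64 and 9.80 in hypoxic knockouts and 9.10, 9.88 and 9.89 in hypoxic controls. It was 9.53, 9.43 and 9.38 in normoxic knockouts and 9.49, 9.49 and 9.43 in normoxic controls. For H2-Eb1 5 of 6 hypoxic arrays were above every normoxic array, and control hypoxia 1 was below every normoxic array. The averaged log2 difference was 0.24 ± 0.12 (SE; limma adjusted p = 0.23; exact permutation p = 0.1). Without control hypoxia 1 both passed, H2-Aa at 0.31 (adjusted p = 0.013) and H2-Eb1 at 0.37 (adjusted p = 0.0045), and H2-Eb1 passed in controls at 0.42 (adjusted p = 0.019).

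Cd74, the invariant chain, lay near the top of the arrays' range in every lung. It was 12.76, 12.67 and 12.62 in hypoxic knockouts and 12.70, 12.76 and 12.76 in hypoxic controls (log2). It was 12.67, 12.50 and 12.62 in normoxic knockouts and 12.50, 12.35 and 12.62 in normoxic controls. The control groups did not overlap and the knockout groups did. Averaged over genotypes the log2 difference was 0.17 ± 0.06 (SE; limma adjusted p = 0.093; exact permutation p = 0.025). It was 0.09 ± 0.09 in knockouts (adjusted p = 0.78) and 0.25 ± 0.09 in controls (adjusted p = 0.086). Without control normoxia 4 the control value was 0.31 (adjusted p = 0.040) and the averaged value 0.20 (adjusted p = 0.044).

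Neither H2-DO chain passed the test. H2-Ob was 6.01, 5.79 and 6.04 in hypoxic knockouts and 5.57, 5.92 and 6.43 in hypoxic controls (log2). It was 6.06, 6.69 and 6.20 in normoxic knockouts and 6.39, 6.90 and 6.38 in normoxic controls. The hypoxic knockouts lay below the normoxic knockouts, and the control groups overlapped through control hypoxia 4. The averaged log2 difference was -0.48 ± 0.16 (SE; limma adjusted p = 0.066; exact permutation p = 0.03), and without control hypoxia 4 it was -0.59 (adjusted p = 0.025). In controls the difference was -0.58 ± 0.22 (adjusted p = 0.12), and -0.81 without that array (adjusted p = 0.044). H2-Oa was 5.58, 5.20 and 5.46 in hypoxic knockouts and 5.31, 5.75 and 5.73 in hypoxic controls. It was 5.53, 5.31 and 5.69 in normoxic knockouts and 5.34, 5.61 and 5.39 in normoxic controls. All 4 groups overlapped for H2-Oa. Its averaged log2 difference was 0.03 ± 0.10 (SE; limma adjusted p = 0.91), with a 95% interval of -0.20 to 0.25.

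**Figure D2:**
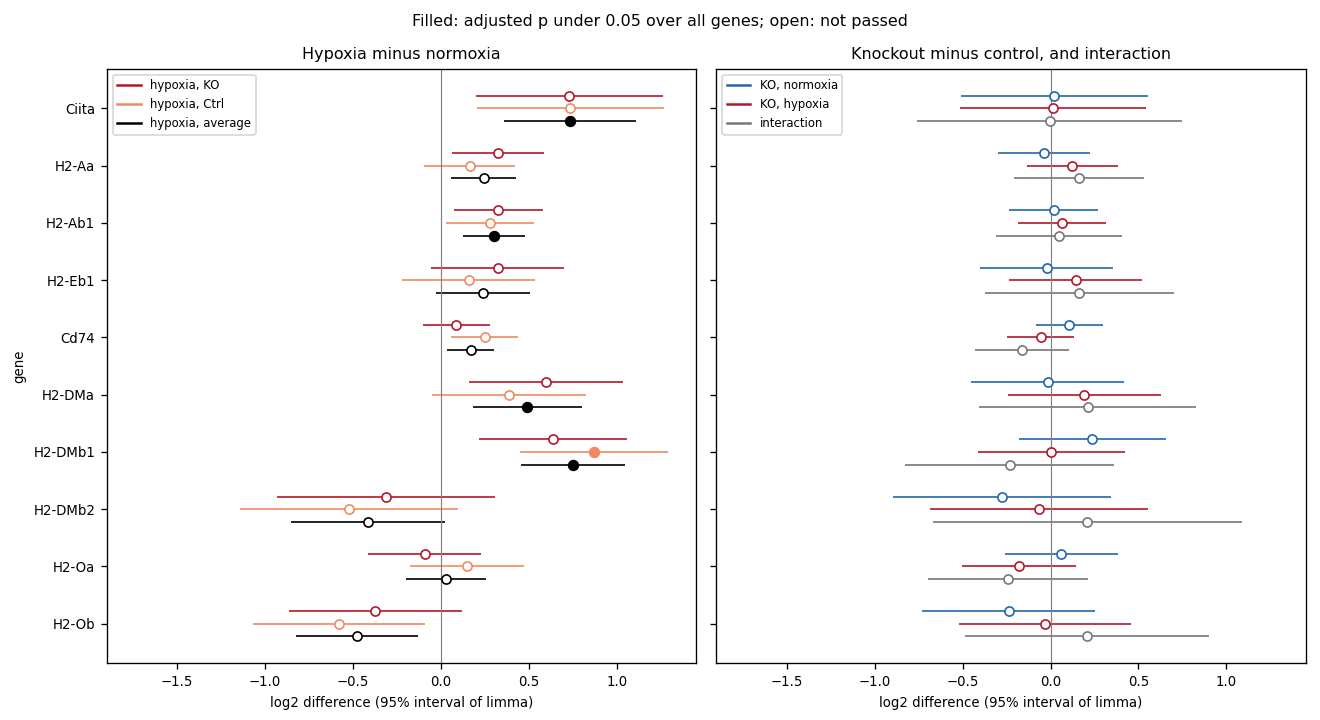
Log2 differences of the 10 genes with limma's 95% intervals, for hypoxia minus normoxia in knockouts, in controls and averaged (left), and for knockout minus control in each oxygen state and the interaction (right); filled points passed at 0.05 after adjustment. Left, 8 of 10 averaged values lie above 0 and 4 are filled; right, every interval includes 0.

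In hypoxic against normoxic knockouts alone 0 of 10 genes passed with limma, where 1.14% of all genes did (0.64% higher), and 5 of 10 had an unadjusted limma p under 0.05 against 12.6% of all genes. The arrays did not overlap for 6 of 10 genes in knockouts, against 19.8% of all genes. Of these, 5 were higher in hypoxia (10.9% of all genes) and H2-Ob was lower (8.97%). In controls they did not overlap for 3 of 10, H2-DMb1, Cd74 and Ciita, against 27.7% of all genes, and all 3 were higher (14% of all genes). The knockout and control contrasts use different animals. The medians of the 10 log2 differences were 0.32 in knockouts and 0.21 in controls, and without control hypoxia 1 the control median was 0.36.

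The loss of endothelial Nfat5 was not accompanied by a detectable change in class II RNA. Knockout minus control gave 0 of 10 genes called in normoxia (0.00405% of all genes were called), 0 of 10 in hypoxia (0%) and 0 of 10 averaged over oxygen states (0%). With limma 0 of 10 had an unadjusted p under 0.05 in normoxia (7.26% of all genes), in hypoxia (5.1%) or averaged (4.26%), and 0 passed in any alternative setting. The arrays of the genotypes overlapped for all 10 genes in normoxia, where 11.7% of all genes did not overlap, and in hypoxia (9.74%). In normoxia the largest positive log2 difference was that of H2-DMb1, 0.24 ± 0.19 (SE; 95% interval -0.18 to 0.66). For Ciita the knockout minus control difference was 0.02 ± 0.24 in normoxia (-0.51 to 0.55) and 0.01 ± 0.24 in hypoxia (-0.52 to 0.55). For H2-Ab1 it was 0.02 ± 0.12 in normoxia (-0.23 to 0.27) and 0.07 ± 0.12 in hypoxia (-0.19 to 0.32). For H2-DMb2, the least precise, the intervals were -0.89 to 0.35 in normoxia and -0.68 to 0.56 in hypoxia. These intervals leave room for changes in either direction and do not show equal levels. In hypoxia 6 of the 10 differences lay above 0, with a median of 0.01. Without control hypoxia 1, 0 of 10 did, the median was -0.10, and 1 gene, H2-Oa at -0.32, had an unadjusted limma p under 0.05 (adjusted p = 0.61).

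The interaction, which is the hypoxia difference in knockouts minus that in controls, also passed for 0 of 10 genes, where 0.00405% of all genes passed. With limma 0 of 10 had an unadjusted p under 0.05, against 8.25% of all genes. It was -0.0059 ± 0.34 for Ciita (SE; 95% interval -0.76 to 0.75), -0.23 ± 0.27 for H2-DMb1 (-0.82 to 0.36) and 0.05 ± 0.16 for H2-Ab1 (-0.31 to 0.40). So the call of H2-DMb1 in controls and its absence in knockouts was not shown to be a difference between the genotypes. The median interaction of the 10 genes was 0.10 with 6 above 0, and without control hypoxia 1 it was -0.12 with 2 above 0.

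The spread of the 10 genes among animals was uneven. In normoxic controls the mean of the 10 genes was 8.85 in each of the 3 arrays, while it was 8.68, 9.21 and 9.22 in hypoxic controls 1, 2 and 4. Control hypoxia 1 was the lowest of its group for 10 of 10 genes, knockout hypoxia 3 for 8 of 10 and knockout normoxia 2 for 8 of 10. Of these, control hypoxia 1 and knockout normoxia 2 are the arrays with high Ucp1. The list means of dendritic cell markers, interstitial macrophage and monocyte markers, endothelial markers, class I presentation and Cd74 signalling were also lowest in their groups in these 3 arrays. For dendritic cell markers this was a mean over 14 genes of 5.23 in knockout hypoxia 3, 4.87 in control hypoxia 1 and 5.08 in knockout normoxia 2. Other list means were the highest of their groups in these arrays. In the same order they were 8.38, 8.56 and 8.37 for alveolar macrophage markers and 6.55, 6.27 and 6.88 for nuclear noncoding RNAs. For brown fat markers they were 4.32, 6.15 and 7.29. The part these tissues and cells play in the result was not tested. Without control hypoxia 1, 5 of 10 genes passed in controls and 6 of 10 averaged over genotypes, all higher in hypoxia, where 2930 of 24704 genes passed in controls and 3874 averaged.

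The rest of the class II pathway was read from lists chosen by function. Each averaged count below is to be set beside all genes, of which 7.27% rose and 7.4% fell. Of 14 genes of endosomal processing and class II turnover, 5 rose and 1 fell with hypoxia averaged over genotypes, and their median log2 difference was 0.10. Without knockout hypoxia 4 or knockout normoxia 2, 2 rose and 0 fell, and 0 passed with the nuclear or the clock covariate. Ifi30, the thiol reductase that opens disulfide bonds of antigens, was 10.14, 9.89 and 9.88 in hypoxic knockouts and 9.60, 10.02 and 9.90 in hypoxic controls. It was 9.39, 8.94 and 9.29 in normoxic knockouts and 9.27, 9.04 and 9.51 in normoxic controls. Every hypoxic array lay above every normoxic one, and the averaged log2 difference was 0.67 ± 0.11 (SE; limma adjusted p = 0.0035). Ifi30 also passed in knockouts (0.77, adjusted p = 0.045) and in controls (0.57, adjusted p = 0.038). The lysosomal proteases Ctsd (0.39, adjusted p = 0.0044), Lgmn (0.32, adjusted p = 0.032) and Ctsh (0.26, adjusted p = 0.023) and the cathepsin inhibitor Cst3 (0.29, adjusted p = 0.037) rose as well. Sppl2a, the intramembrane protease that removes the Cd74 stub, fell by 0.36 (adjusted p = 0.024). Ctss, the main protease of Cd74 in B cells and dendritic cells, was 9.81 to 10.02 in hypoxic and 9.71 to 10.13 in normoxic lungs, which overlap.

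Of 10 factors that bind the X and Y boxes or assist CIITA 0 rose and 3 fell, the acetyltransferase Kat2b by 0.37 (adjusted p = 0.0090), the coactivator Crebbp by 0.30 (adjusted p = 0.022) and Creb1 by 0.24 (adjusted p = 0.035), and the list's median was -0.06. Rfx5, the X box factor, was 7.48 to 7.92 in hypoxic lungs and 7.54 to 7.70 in normoxic lungs. The 2 other class II chain genes stayed low, H2-Eb2 at 3.83 to 4.53 and H2-Ea, which the gene table lists as a transcribed pseudogene, at 3.17 to 3.54, below the median gene (4.54) in every array. Among 14 interferon-gamma genes 1 rose and 2 fell, where 7.27% of all genes rose and 7.4% fell. Igtp, an interferon-induced GTPase, rose by 0.80 ± 0.14 (SE; adjusted p = 0.0049), whereas the kinases Jak2 and Jak1 fell by 0.45 (adjusted p = 0.031) and 0.24 (adjusted p = 0.019). Ifng itself lay below the median gene in all 12 arrays. In controls Socs1, a feedback inhibitor of cytokine signalling, rose by 0.46 (adjusted p = 0.042).

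Where 7.27% of all genes rose, class I presentation had 1 rise among 17 genes and a median log2 difference of 0.08. The 1 gene, Tapbp, which loads peptides onto class I, rose by 0.34 ± 0.07 (SE; adjusted p = 0.012). Tapbpl (0.23, adjusted p = 0.064) and Psmb10 (0.39, adjusted p = 0.11) came next in controls. Of 9 costimulation and adhesion genes Icam1 rose by 0.24 (adjusted p = 0.018) and Cd48 fell by 0.51 (adjusted p = 0.011), and Cd83, of mature dendritic cells, stood at 0.62 in controls (adjusted p = 0.060). Among 5 genes of Cd74 signalling the receptor Cxcr4 fell by 0.45 (adjusted p = 0.020), and the Cd74 ligand Mif rose in controls by 0.60 (adjusted p = 0.036) while its averaged value was 0.37 (adjusted p = 0.052). The chemokine receptor Cxcr2 stood at -0.42 (adjusted p = 0.11).

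**Figure D3:**
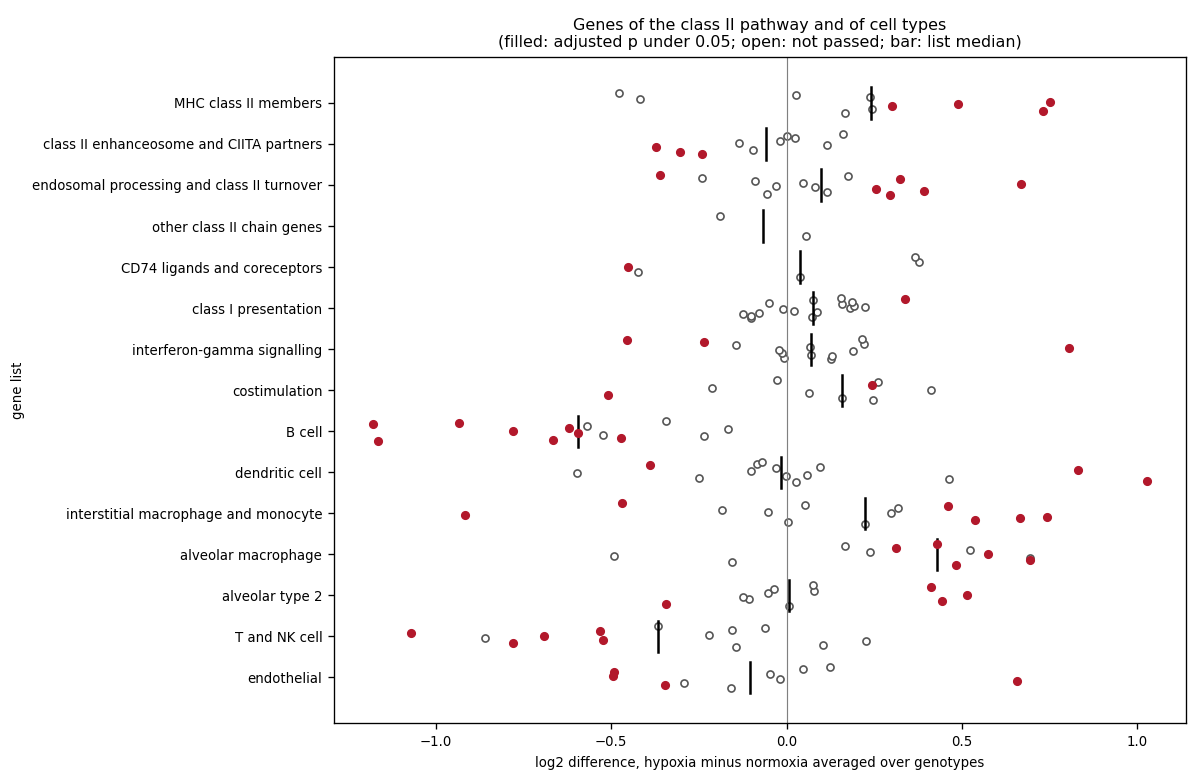
Log2 difference of hypoxia minus normoxia, averaged over genotypes, for each gene of the class II pathway lists and of the cell type lists; filled points passed at 0.05 after adjustment and bars mark list medians. The 10 class II genes have a median of 0.24 and the 13 B cell markers one of -0.59.

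Markers of the cells that carry class II differed in direction. Over all genes 7.27% rose and 7.4% fell with hypoxia averaged over genotypes. Of 13 B cell markers 0 rose and 8 fell with hypoxia averaged over genotypes, with a median log2 difference of -0.59. The mean level of the 13 was 5.76 to 6.27 in hypoxic knockouts, 6.05 to 6.45 in hypoxic controls, 6.63 to 6.93 in normoxic knockouts and 6.69 to 6.86 in normoxic controls. Every hypoxic array lay below every normoxic one, the opposite order to H2-DMb1, and of the 13 only Cr2 lay below the median gene in all arrays. Bank1, a B cell adaptor, fell by 1.17 ± 0.12 (SE; adjusted p = 0.00035), the kinase Blk fell by 0.67 (adjusted p = 0.0037), and Pax5, the factor that keeps B cell identity, fell by 0.93 (adjusted p = 0.00094). H2-Ob and H2-DMb2 lay below 0 beside these markers, and their part in those values was not tested.

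Of 14 dendritic cell markers 2 rose and 1 fell with hypoxia averaged over genotypes, where 7.27% of all genes rose and 7.4% fell. The median of the list was -0.02. Fscn1, an actin bundler of mature dendritic cells, rose by 0.83 ± 0.13 (SE; adjusted p = 0.0026) and the chemokine Ccl17 by 1.03 ± 0.19 (adjusted p = 0.0058), while Siglech, of plasmacytoid dendritic cells, fell by 0.39 (adjusted p = 0.025). In controls Clec9a, of the cross-presenting subset, fell by 0.99 (adjusted p = 0.037). The mean of the 14 markers overlapped between the oxygen states, at 5.23 to 5.38 in hypoxic knockouts, 4.87 to 5.37 in hypoxic controls, 5.08 to 5.34 in normoxic knockouts and 5.11 to 5.13 in normoxic controls. Xcr1, Batf3 and Clec10a lay below the median gene in every array.

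Of 13 interstitial macrophage and monocyte markers 4 rose and 2 fell, with a median of 0.22. The complement genes C1qc (0.74 ± 0.13 SE, adjusted p = 0.0050), C1qb (0.66, adjusted p = 0.0029) and C1qa (0.54, adjusted p = 0.014) and the mannose receptor Mrc1 (0.46, adjusted p = 0.0019) rose, and the monocyte receptor Ccr2 fell by 0.92 (adjusted p = 0.0040). The list mean was 7.47 to 7.77 in hypoxic knockouts, 7.39 to 7.72 in hypoxic controls, 7.49 to 7.60 in normoxic knockouts and 7.38 to 7.44 in normoxic controls, so the groups overlapped. Ms4a7 lay below the median gene. Of 11 alveolar macrophage markers 5 rose and 0 fell (median 0.43), among them Chil3, a chitinase-like protein (0.69, adjusted p = 0.0013), and the integrin Itgax (0.57, adjusted p = 0.0064). The lipid droplet gene Cidec rose in controls by 1.35 (adjusted p = 0.020). The 11 log2 differences ran from -1.84 to 0.71 in knockouts and from -0.125 to 1.35 in controls. The mean of the 11 was 8.17 to 8.38 in hypoxic knockouts, 8.02 to 8.56 in hypoxic controls, 8.01 to 8.37 in normoxic knockouts and 7.59 to 7.93 in normoxic controls. The control groups did not overlap, and the knockout groups did through knockout normoxia 2 (8.37), beside 8.05 and 8.01 in the other normoxic knockouts. Control hypoxia 1 (8.56) and knockout normoxia 2, the highest of their groups, are the arrays high in Ucp1. The part of fat RNA in this list was not tested. Of the 11, 0 were below the median gene in all arrays. Alveolar type 2 markers had 3 rises and 1 fall among 11 and a median of 0.01, with rises in the protease Napsa (0.51, adjusted p = 0.0022) and the surfactant protein Sftpd (0.41, adjusted p = 0.016) and a fall in Cxcl15 by 0.34 (adjusted p = 0.0061). Their mean was 11.59 to 11.62 in hypoxic knockouts, 11.50 to 11.65 in hypoxic controls, 11.49 to 11.57 in normoxic knockouts and 11.43 to 11.56 in normoxic controls, so the knockout groups did not overlap and the control groups did. The part of each cell type in the class II values was not tested.

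**Figure D4:**
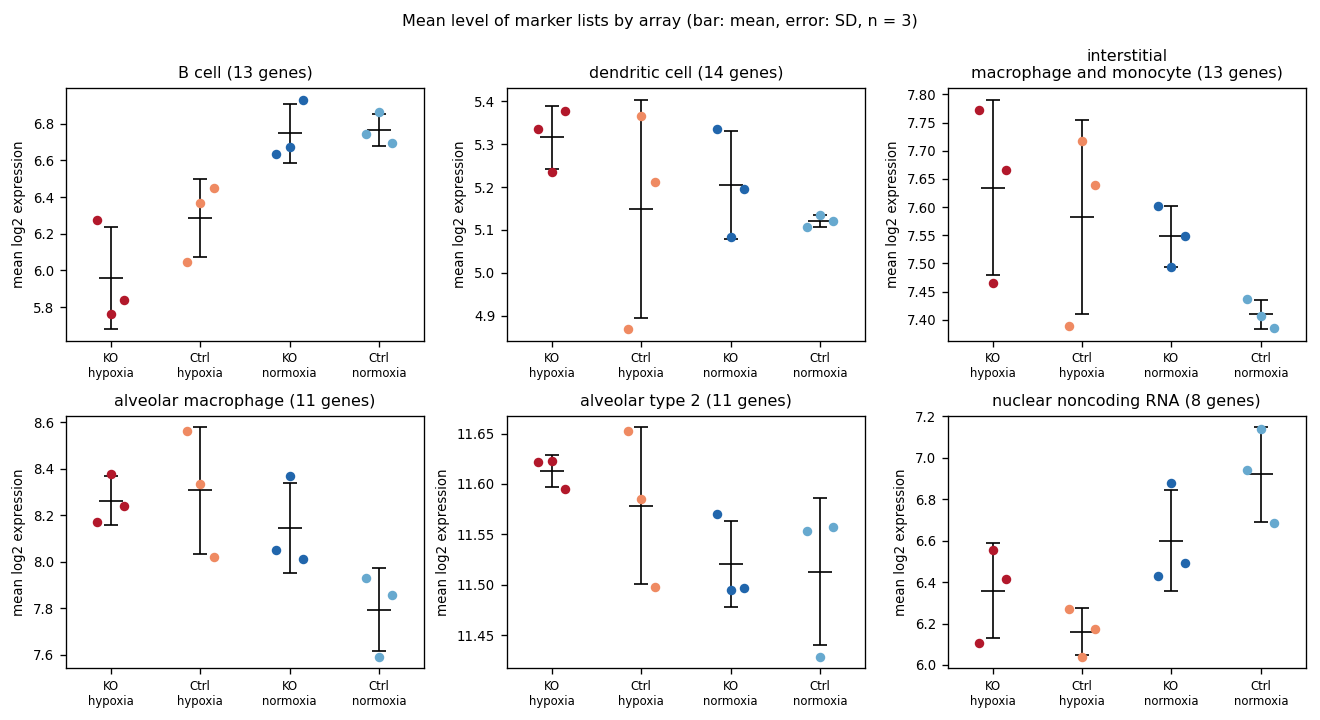
Mean log2 expression of cell type marker lists, and of 8 nuclear noncoding RNAs, in each array with the mean and SD of each group of 3. For B cell markers the 6 hypoxic arrays, at 5.76 to 6.45, lie below the 6 normoxic ones, at 6.63 to 6.93, while dendritic cell markers overlap.

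The genes whose level was most like the mean of H2-Aa, H2-Ab1, H2-Eb1 and Cd74 were found by Pearson correlation, given as a description of 12 arrays that share the oxygen contrast. Outside the 10 genes and placeholder symbols they were Mlst8 (r = 0.962), Tst (0.948), Slc35c2 (0.947), Josd2 (0.940), Sfxn2 (0.940) and Tdp1 (0.939). Of these, Mlst8, a subunit of the mTOR complexes (0.35, adjusted p = 0.024), and the deubiquitinase Josd2 (0.36, adjusted p = 0.019) also rose with hypoxia. With each group's mean taken out, the most similar genes were Sh3bgrl3 (0.960), Foxn4 (0.955), Tst (0.954), Atp5l-ps1 (0.951), the lymphocyte surface protein Cd52 (0.950) and Akna (0.942), which fell with hypoxia by 0.33 (adjusted p = 0.016). Tst, a mitochondrial sulfurtransferase, was the 1 gene in both sets of 6.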

How the data were processed

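The values deposited by the authors are on a log2 scale, with 1 value for each probe set in every array. RMA made them, per the submitters' processing notes, and no source used here gives its version, probe annotation or filters. The 12 arrays hold identical sorted values from 2.41 to 13.7, so a change in total RNA cannot be seen. Of 25428 probe sets, 24705 had 1 symbol, 0 had several and 723 had none. For the 1 symbol with more than 1 probe set the highest mean was kept, giving 24704 genes without a filter.

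Groups came from the sample titles. The design text speaks of mice, so each array was read as 1 mouse, and 3 arrays a group limit the precision. The fit used 4 group means per gene in limma 3.58.1 (R 4.3.3; 8 residual degrees of freedom, prior 3.61), with 7 contrasts and Benjamini-Hochberg adjustment over all genes. All tests were two-sided. Adjusted p-values and errors marked SE are those of limma. Exact permutation tests kept genotype or oxygen state as a stratum, and for 3 against 3 arrays cannot go below 0.1. The fit and the exact test were tested on simulated data.

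Named genes were all 10 class II genes, called genes and the 3 smallest adjusted p-values of each pathway list, the 3 smallest in controls of each main cell type list, a few tissue markers, and the 6 genes most correlated with the class II mean. Ctss, Rfx5, Ifng, Neat1, Malat1, Ccl17, C1qa, Ccr2, Cldn5 and markers below the median gene were named after their values were seen. The members and lists were chosen with earlier results of these data known. Deviations from group means correlated above 0.1 in 4 of 15 same-numbered pairs of arrays and in 13 of 39 other pairs. The reported fit did not pair arrays by number, but this check cannot exclude that mice were matched. In normoxia, knockout and control arrays 1, 2 and 4 correlated at 0.086, 0.28 and 0.18. Their Y-linked means were 2.98 and 3.04, 6.66 and 6.69, and 6.12 and 6.18. In hypoxia, knockout and control arrays 2 and 4 correlated at 0.084 and 0.010. The Y-linked means of these hypoxic pairs were unlike, 5.36 and 3.08, and 3.26 and 5.34. Alternatives were a replicate block, other variance priors, array weights, a filter, another centring, 3 covariates, the fit of the compared groups and leaving out arrays. Some listed genes are not analysed here.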

Additional observations from a re-analysis of the deposited data

How the results depend on the processing

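In hypoxia minus normoxia averaged over genotypes, 4 of 10 genes passed in the reported fit and 2 to 6 when 1 array was left out. The count was 2 with the replicate block (2680 of all genes, against 3622 in the reported fit), 2 with the Y-linked mean as covariate (2180), 0 with the nuclear RNA mean (52) and 0 with Dbp minus Arntl (0). It was 6 with a variance trend and robust estimation (3592 of all genes), and 5 with the filter (3729), where H2-Ob was called lower in hypoxia (adjusted p = 0.040). In controls alone 1 of 10 passed and 0 to 5 when 1 array was left out. That count was 2 with the replicate block (2058 of all genes, against 2839 in the reported fit), the filter (3078), a variance trend (2783), or a trend with robust estimation (2805), 5 without both arrays high in Ucp1 (2834), and 0 with the nuclear (2) or the clock covariate (7). In knockouts alone 0 passed and 0 to 1 when 1 array was left out. With the nuclear RNA mean as covariate the control value of H2-DMb1 was -0.0047 and the averaged value of H2-DMa -0.026, both turned in sign. In controls 1 of the 10 values then lay above 0, against 8 in the reported fit, and averaged over genotypes 5 did. The cause was not tested. Of the gene lists, when 1 array was left out the averaged count was 7 to 9 of 13 B cell markers, all lower, 2 to 4 of 14 dendritic cell markers, 6 to 8 of 13 interstitial macrophage and monocyte markers, 4 to 7 of 11 alveolar macrophage markers, 2 to 6 of 14 endosomal genes and 1 to 3 of 10 enhanceosome genes. With the nuclear or the clock covariate 0 genes of any list passed. The 4 genotype and interaction counts were 0 under every alternative run. In the replicate block fit knockout hypoxia 3, the one array with that number, carries no weight, and H2-Ab1 (adjusted p = 0.077) and H2-DMa (adjusted p = 0.088) lost their averaged calls. No signal depth is known, and 3 arrays a group limit what can be seen.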

Other observations

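T and NK cell markers had 0 rises and 5 falls among 13 with hypoxia averaged over genotypes, and a median log2 difference of -0.37. The 5 were Cd3g, Cd8a, Il7r, Klrd1 and Ncr1, and Cd4, of the T cells that read class II, was not called. Klrd1, an NK receptor chain, fell by 1.07 (limma adjusted p = 0.0061), Ncr1, an activating NK receptor, fell by 0.53 (adjusted p = 0.0053) and Il7r, the IL-7 receptor of resting T cells, fell by 0.69 (adjusted p = 0.016). The list mean was 5.20 to 5.41 in hypoxic knockouts, 5.28 to 5.48 in hypoxic controls, 5.59 to 6.06 in normoxic knockouts and 5.52 to 5.96 in normoxic controls, so every hypoxic array lay below every normoxic one.

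Of 10 endothelial markers 1 rose and 3 fell. Emcn, a sialomucin of capillaries and veins, rose by 0.66 (adjusted p = 0.00040), while the VEGF receptor Kdr fell by 0.50 (adjusted p = 0.00082), the angiopoietin receptor Tek fell by 0.49 (adjusted p = 0.00063) and the tight junction gene Cldn5 fell by 0.35 (adjusted p = 0.018).

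Of 6 heart markers 0 rose and 2 fell, the hormone Nppa by 1.89 (adjusted p = 0.026) and the atrial myosin chain Myl7 by 0.94 (adjusted p = 0.031). Nppa was 11.9 in knockout normoxia 2, and the heart count was 0 without knockout hypoxia 4, control hypoxia 4 or control normoxia 1 and 5 without knockout normoxia 1. With limma 0 of 5 brown fat and 0 of 8 thymus markers passed (0 and 1 at an unadjusted p under 0.05), and 6 of the 8 thymus markers lay below the median gene in every array. Of 8 nuclear noncoding RNAs 0 rose and 5 fell.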
